A study of Homo sapiens with 14 samples.

Results

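Non-targeting small interfering RNA (siRNA) pools are the baseline of a knockdown experiment, and in OVCAR4 cells the 2 pools used as controls were set against each other. OVCAR4 is a cell line established from a human ovarian cancer of the high-grade serous type. The members were the 2 libraries of siNT1 and the 2 libraries of siNT2, chosen by the pool named in their titles, which is 4 of the 14 libraries sequenced. siNT1 was the Dharmacon ON-TARGETplus Non-targeting Control Pool, and siNT2 was a custom non-targeting pool from the same supplier made of 3 catalogue items. The other 10 libraries came from cells given a pool against PAX8 (siPAX8), SOX17 (siSOX17), both at once (siDual), MECOM (siMECOM) or WT1 (siWT1), with 2 libraries each. All 14 cultures were of 300000 cells, reverse transfected with 120 nM of siRNA, given new medium at 24 hours and harvested for total RNA at 72 hours. No untransfected or mock-transfected library was analysed here, so every difference is between one pool and another. Whether libraries of 1 group stem from separate transfections is not in the labels, and the p-values therefore cover the spread between these libraries alone.

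An siRNA is loaded into an Argonaute protein, and its guide strand directs cleavage of transcripts that it matches along its length. A guide can also lower transcripts that it matches only through its seed, bases 2 to 8 counted from its 5′ end, when the pairing lies in their 3′ untranslated region (3′ UTR), in the way that a microRNA does. Non-targeting pools are designed to lack a full match in the transcriptome, and their seeds still occur in many 3′ UTRs. Transfected double-stranded RNA can also be sensed by TLR3, RIG-I and related receptors, which turn on interferon-stimulated genes.

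The gene counts summed to 40832825 and 49059114 in siNT1 and to 48007290 and 45669788 in siNT2. Ovarian serous and epithelial marker transcripts were abundant in all 4 libraries: the 17 markers summed to 6488 and 5690 CPM (read counts scaled to library size, here to the total count) in siNT1 and to 6074 and 6044 CPM in siNT2. Of the 17, MSLN stayed near 1 CPM and WT1, which marks serous tumours, at 0.343 and 0.448 CPM in siNT1 and at 0.437 and 0.394 CPM in siNT2. Leukocyte, endothelial and fibroblast markers summed to 8.81 to 44.9 CPM, nearly all of it from CD68, CDH5, VWF, PECAM1 and COL1A1, while PTPRC and COL3A1 were at or below 0.122 CPM. The targeted genes did not differ detectably between the pools. In CPM after scaling by TMM, edgeR's trimmed mean method, the scale of all CPM values from here on, PAX8 was at 196 and 192 in siNT1 and at 206 and 225 in siNT2, with a log2 difference of -0.15 ± 0.08 (SE; adjusted p = 0.72). SOX17, MECOM and WT1 differed by -0.04 ± 0.10, 0.02 ± 0.15 and -0.09 ± 0.39 (log2 difference, SE; n = 2 libraries a pool; adjusted p by edgeR 0.97 or more for each).

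The pools gave closely similar transcriptomes, and a small set of genes stood apart. Of 21032 genes tested, 63 were called at an adjusted p under 0.05 by the quasi-likelihood test of edgeR, adjusted by Benjamini-Hochberg, which is 0.3% of those tested. Of these, 51 were higher in siNT1, 0.242% of the genes tested, and 12 were lower, 0.0571%. DESeq2 called 153 genes, 107 higher and 46 lower, and edgeR with no filter on low counts called 232, 163 higher and 69 lower. Adding the replicate number as a block in edgeR gave 150 calls, 105 higher and 45 lower. With total counts as library size 6 genes were lower. The called differences were modest, with a median size of 0.62 on the log2 scale and a smallest of 0.37. Only 10 genes, 0.0475% of those tested, were called and at least 2-fold apart, of which 9 were higher in siNT1 and 1 was lower. In all 63 the 2 siNT1 libraries lay on one side of the 2 siNT2 libraries, as they did in 36.7% of all genes tested. At an unadjusted p under 0.05 there were 1608 genes.

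**Figure D1:**
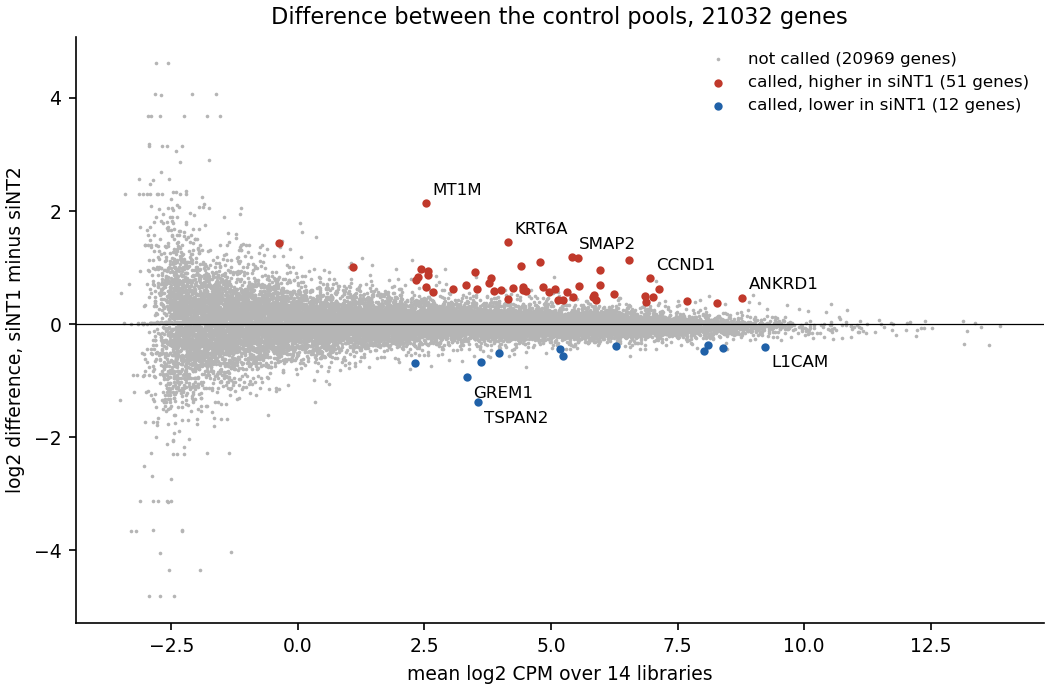
Each point is 1 of the 21032 genes tested, with its mean log2 CPM over 14 libraries on the x axis and its log2 difference, siNT1 minus siNT2, on the y axis. Red points are the 51 genes called higher in siNT1, blue points the 12 called lower and grey points the rest. The called genes fan out above 0 more than below it, and grey points of low level spread widest.

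Across whole libraries the pools were hardly farther apart than replicates of one pool. The median absolute difference in log2 CPM was 0.131 between the siNT1 libraries and 0.152 between the siNT2 libraries, and it was 0.137 to 0.165 over the 4 pairings of a siNT1 with a siNT2 library. The number of calls rested on having both libraries of each pool. It fell to 11 without siNT1 replicate 1, to 17 without siNT1 replicate 2, to 33 without siNT2 replicate 1 and to 14 without siNT2 replicate 2. Called in all of those 4 fits were 10 genes: SMAP2, MT1M, MT1E, MT1F, TNS4, KIAA0040, LRRC3, CCND1 and DYRK2, higher in siNT1, and TSPAN2, lower. All 63 kept their direction in each of the 4 fits, which was nearly fixed in advance. In all 63 the siNT1 libraries lay on one side of the siNT2 libraries.

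SMAP2, which encodes a GTPase-activating protein for Arf GTPases that acts in clathrin-dependent traffic at the trans-Golgi network, had the smallest p. It was at 35.2 and 37.0 CPM in siNT1 and at 16.4 and 15.5 CPM in siNT2. The siNT2 values were below those of all 12 other libraries, since the knockdown libraries ranged from 31.1 to 60.1 CPM. The log2 difference was 1.18 ± 0.09 (SE; adjusted p = 1.3e-06). ARF3, an Arf GTPase itself, was also called, at 289 and 277 CPM in siNT1 and 220 and 214 CPM in siNT2. They were the only called genes among 28 tested Arf GTPases and Arf GTPase-activating proteins, 7.14% against 0.3% of all genes, and the list was chosen with earlier results of these data known. Its median log2 difference was 0.01.

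Metallothioneins, small cysteine-rich proteins that bind zinc and copper and are induced by these metals through the factor MTF1, were the list with the largest share of tested members called. Of 12 members 8 passed the filter on low counts, all 8 had a positive log2 difference, and 4 were called higher in siNT1, against 9.09% in the next list and 0.3% of all genes. Their median log2 difference was 0.87, beside -0.002 over all genes tested. This list, too, was chosen with earlier results of these data known. MT1M was at 8.89 and 7.99 CPM in siNT1 and at 1.68 and 2.16 CPM in siNT2, a log2 difference of 2.14 ± 0.19 (adjusted p = 1.4e-05), which was the largest of the 63. Its groups lay far apart, with siNT2 below all 12 other libraries and the knockdown libraries at 2.95 to 12.97 CPM.

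MT1E was at 109 and 105 CPM in siNT1 and at 46.6 and 50.6 CPM in siNT2 (log2 difference 1.14 ± 0.12, adjusted p = 4.1e-05). MT1F was at 57.5 and 64.7 CPM in siNT1 and at 26.1 and 28.5 CPM in siNT2 (1.16 ± 0.12, adjusted p = 5.2e-05). In both, siNT2 lay below every other library of the series. MT1X was called with a smaller difference, 31.3 and 32.4 CPM in siNT1 and 20.1 and 21.4 CPM in siNT2 (0.62 ± 0.13, adjusted p = 0.038), and it shares its position on the same strand with AC026461.1, which was called too. MT2A was at 475 and 454 CPM in siNT1 and at 296 and 356 CPM in siNT2 and was not called (0.51 ± 0.13, adjusted p = 0.15). MT1A, MT1B and MT1G had differences of 0.45, 0.82 and 0.91 with adjusted p of 0.49 or more, the last 2 below 1 CPM in all 4 libraries. These genes lie side by side on chromosome 16 and are close paralogs, so reads may have been split between them or dropped, depending on counting options that are not given in the sources used here.

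Of the genes around the metallothioneins in metal handling, 1 of 27 tested was called, which is 3.70%, against 0.3% of all genes tested. This was SLC31A1, the main copper importer of the plasma membrane, at 38.0 and 41.9 CPM in siNT1 and 30.4 and 29.2 CPM in siNT2 (log2 difference 0.42 ± 0.08, adjusted p = 0.020). MTF1 itself missed the threshold, at 30.4 and 29.1 CPM in siNT1 and 20.9 and 22.3 CPM in siNT2 (0.46 ± 0.10, adjusted p = 0.053), and so did the zinc transporter gene SLC30A2 (1.53 ± 0.35, adjusted p = 0.077). The median over the 27 genes was -0.01, and 12 of them lay above 0. At an unadjusted p under 0.05 by edgeR there were 7 of the 27, beside 1608 of all 21032 genes tested. Glucocorticoids also induce metallothioneins. None of 14 tested glucocorticoid response genes, MT2A among them, was called, as a list of this size would give at 0.3% over all genes. Their median was 0.15, and 11 of the 14 lay above 0, as did 10408 of all 21032 genes tested. A shift of this list was not tested.

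The upstream sequences of the metallothioneins are shown because 4 of the 8 tested members were called in the same direction. The sequence table used, from RefSeq (GRCh38.p14), holds MT1X, MT2A, MT1B, MT1H and MT4 of the family. Given here are the 250 bases before the annotated start on the plus strand for MT1X, which was called, at chr16:56682220-56682469, and for MT2A, which was not, at chr16:56608334-56608583. Capitals mark matches on either strand to the core of the metal response element, searched as TGCACNC and TGCGCNC.
MT1X: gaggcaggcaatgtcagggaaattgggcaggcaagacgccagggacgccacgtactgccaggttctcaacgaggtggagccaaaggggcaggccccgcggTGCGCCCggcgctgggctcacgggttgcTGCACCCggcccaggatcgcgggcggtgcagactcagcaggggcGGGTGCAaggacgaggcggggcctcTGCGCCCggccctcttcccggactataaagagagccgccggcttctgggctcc
MT2A: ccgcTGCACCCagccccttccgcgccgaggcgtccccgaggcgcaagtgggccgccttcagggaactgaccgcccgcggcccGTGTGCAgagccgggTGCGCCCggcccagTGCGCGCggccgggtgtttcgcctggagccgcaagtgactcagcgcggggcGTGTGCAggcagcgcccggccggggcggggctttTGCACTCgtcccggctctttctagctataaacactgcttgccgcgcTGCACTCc
MT1X held 4 matches and MT2A 7, while MT1B and MT4 held 3 each and MT1H 8. Of 35116 upstream sequences of the same length, 24.8% held at least 1 match and 1.58% held 3 or more. A match is a string of letters, not a measured binding site, and MT2A with more matches than MT1X was the one not called.

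CCND1, which encodes cyclin D1, the partner of CDK4 and CDK6 in G1 phase and one of the 10 genes called in all 4 fits, differed as well. It had 185 and 166 CPM in siNT1 and 105 and 95.9 CPM in siNT2, a log2 difference of 0.81 ± 0.09 (adjusted p = 0.00014). Both pools lay within the range of the knockdown libraries, 62.6 to 251 CPM. LTO1, which overlaps the end of CCND1 on the other strand, was called as well, at 29.8 and 30.2 CPM in siNT1 and 20.9 and 19.3 CPM in siNT2, and without the strand setting of the counting the reads of the pair cannot be told apart. CCND1 was placed in the list of Wnt targets, as the only one called of 16 tested, 6.25% against 0.3% of all genes. The cell cycle lists did not include CCND1 and held no call, as lists of this size would at 0.3% over all genes. They were 33 tested genes of G1/S and replication and 31 of G2/M and mitosis. Their median log2 differences were 0.06 and 0.07, and 26 of the 33 and 26 of the 31 lay above 0. Over all genes tested, 10408 of 21032 did. A shift of these lists was not tested.

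KIAA0040 was at 17.3 and 19.2 CPM in siNT1 and at 9.499 and 8.43 CPM in siNT2 (log2 difference 1.02 ± 0.10, adjusted p = 2.2e-05). LRRC3 was at 15.2 and 13.5 CPM in siNT1 and at 8.32 and 7.90 CPM in siNT2 (0.82 ± 0.11, adjusted p = 0.00079). For both genes siNT2 lay below all 12 other libraries and siNT1 inside the knockdown range. DYRK2, a protein kinase, was at 55.5 and 56.9 CPM in siNT1 and at 37.6 and 32.9 CPM in siNT2 (0.67 ± 0.09, adjusted p = 0.00080). AC078777.1, antisense to DYRK2, was called in the same direction, with 6.20 and 6.31 CPM in siNT1 and 3.69 and 3.63 CPM in siNT2, and is open to the same sharing of reads.

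The rest of the 15 largest increases differed in kind. TNS4, a tensin of focal adhesions, was at 27.7 and 22.8 CPM in siNT1 and at 11.9 and 11.7 CPM in siNT2 (log2 difference 1.10 ± 0.13, adjusted p = 0.00016). KRT6A, a keratin of stressed and stratified epithelium, was at 6.86 and 5.999 CPM in siNT1 and at 2.04 and 2.66 CPM in siNT2 (1.45 ± 0.26, adjusted p = 0.017), but it ranged from 0.696 to 59.2 CPM over the knockdown libraries. It was the only called gene of 11 tested squamous keratins and cornified envelope genes, 9.09% against 0.3% of all genes. Their median difference was 0.23, and IVL, SPRR1A and SPRR1B had no read in any control library. KRT6B, a close paralog of KRT6A, stood at 0.132 to 0.401 CPM in the 4 libraries and was not called.

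The endothelin gene EDN2 was at 84.8 and 55.3 CPM in siNT1 and at 40.7 and 31.4 CPM in siNT2 (log2 difference 0.96 ± 0.17, adjusted p = 0.014). Its siNT1 libraries differed from each other by more than the nearest siNT1 and siNT2 libraries did. Others of the 15 were SYNGR3, a synaptic vesicle protein gene, at 0.97, RELN, which encodes the matrix glycoprotein reelin, at 0.95, IGFL1 at 0.92, the Golgi Rab GTPase gene RAB6B at 0.86, NAT8L, which encodes N-acetylaspartate synthase, at 0.83. In each of these 5 the siNT2 libraries were both below the siNT1 libraries, as the rule for naming them required.

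Further called increases were smaller. ANKRD1, a target of YAP and TEAD factors, was at 325 and 304 CPM in siNT1 and at 219 and 235 CPM in siNT2 (log2 difference 0.47 ± 0.09, adjusted p = 0.019). It was the only one called of 21 tested YAP and TEAD targets, 4.76% against 0.3% of all genes. At an unadjusted p under 0.05 by edgeR there were 7 of the 21, and 1608 of all 21032 genes. SLC16A3, the lactate exporter, was at 60.3 and 60.8 CPM in siNT1 and 44.8 and 45.4 CPM in siNT2. It was the only one called of 32 tested genes of glycolysis and hypoxia, 3.125% against 0.3% of all genes. SEC23A, a subunit of the COPII coat of vesicles leaving the endoplasmic reticulum, was at 109 and 104 CPM in siNT1 and at 73.6 and 65.2 CPM in siNT2 (0.61 ± 0.09, adjusted p = 0.0023). In SEC23A the siNT2 values were again the lowest of the 14 libraries.

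Of the 12 genes lower in siNT1, TSPAN2, a tetraspanin, was the one at least 2-fold apart. It was at 2.29 and 2.97 CPM in siNT1 and at 6.69 and 7.13 CPM in siNT2 (log2 difference -1.38 ± 0.15, adjusted p = 5.9e-05). Here it was siNT1 that lay below all 12 other libraries, which ranged up to 26.8 CPM. GREM1, a secreted antagonist of bone morphogenetic proteins, was at 10.8 and 14.2 CPM in siNT1 and at 22.6 and 25.2 CPM in siNT2 (-0.93 ± 0.16, adjusted p = 0.010), with siNT2 above all 12 others.

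The other lower genes kept both pools inside the range of the knockdown libraries. ADAMTS5, an aggrecan-degrading protease gene, was at 8.91 and 9.61 CPM in siNT1 and 14.4 and 14.9 CPM in siNT2, with a log2 difference of -0.66 ± 0.12 (adjusted p = 0.020). The surface protein genes L1CAM and PRSS8 differed by -0.40 and -0.37, and L1CAM was at 517 and 530 CPM in siNT1 and 654 and 723 CPM in siNT2. ANKRD33B at -0.56, the tyrosine kinase gene FRK at -0.51, the protein phosphatase 6 subunit gene ANKRD52 at -0.48, PBXIP1 at -0.45 and TRAK1, a kinesin adaptor gene, at -0.39 were further protein-coding ones. ANKRD33B overlaps the called pseudogene AC106760.1 on the other strand.

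**Figure D2:**
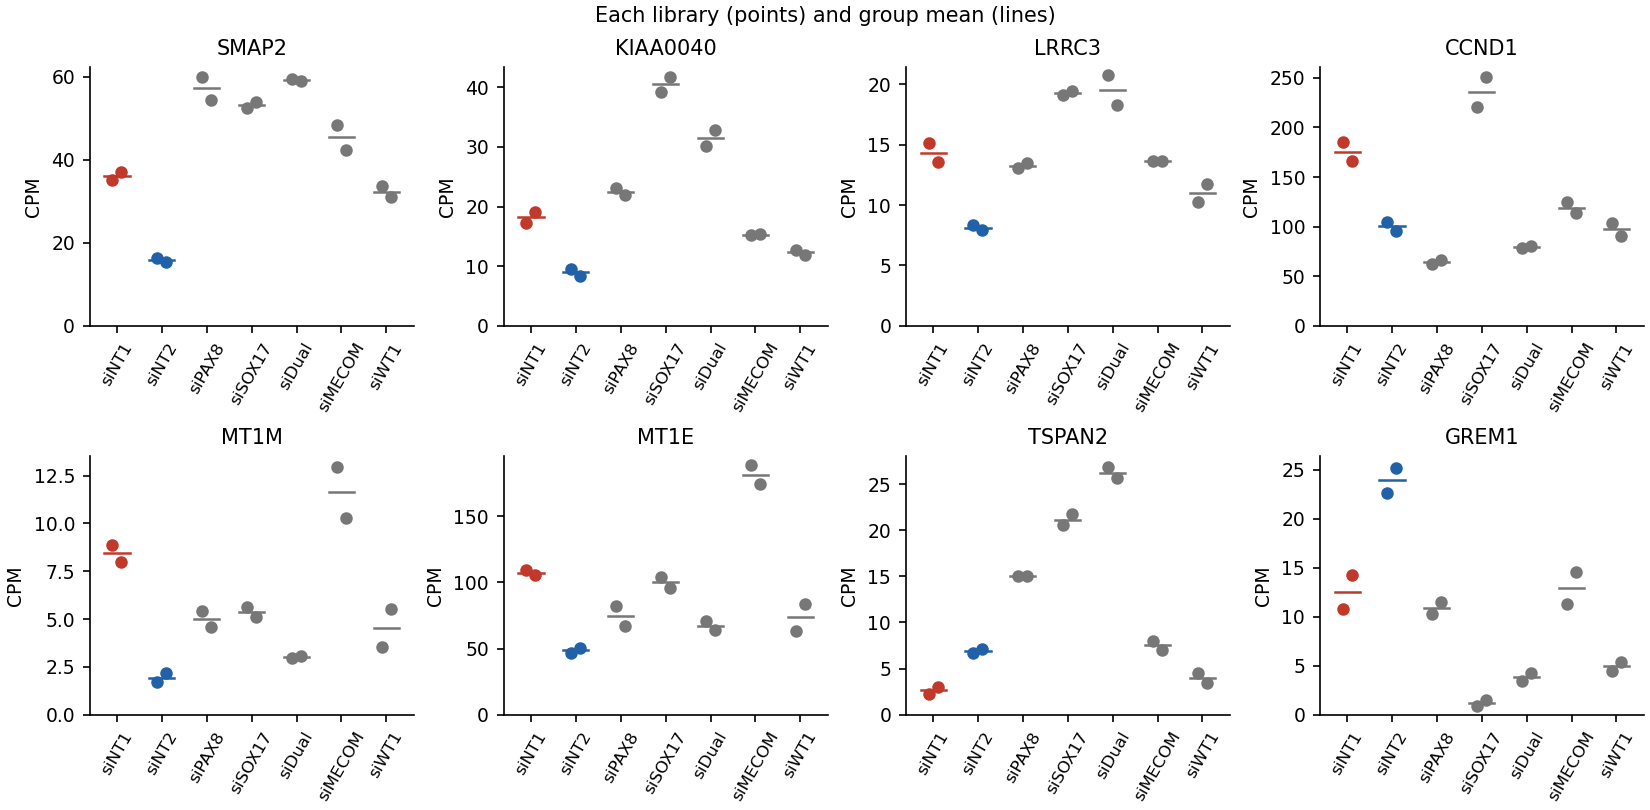
CPM (y axis, from 0) of 8 called genes in each of the 14 libraries, by group; points are libraries and lines are group means. siNT2 is the lowest group for SMAP2, KIAA0040, LRRC3, MT1M and MT1E, siNT1 is the lowest for TSPAN2 and siNT2 the highest for GREM1, while both pools lie inside the knockdown range for CCND1.

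The 10 knockdown libraries, which the comparison of the pools did not set against each other, show where each pool stood. Of the 51 genes higher in siNT1, both siNT1 libraries lay above all 12 other libraries in 5, which is 9.80%, against 1.89% of all genes tested: NXT1, MOCOS, CA12, WDR82 and AC005392.2. Both siNT2 libraries lay below all 12 others in 22 of the 51, 43.1%, against 1.72% of all genes. In 24 of the 51 neither pool lay outside the knockdown range. Of the 12 genes lower in siNT1, neither pool did in 10. Since the 51 were chosen for siNT1 above siNT2, part of both shares follows from the choice.

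In the main test most gene lists held no call, as lists of this size would at a share of 0.3% over all genes. Of 35 lists examined, 9 had a called member and 26 had none, but 16 had one by DESeq2 and 20 with no filter on low counts. A median log2 difference within 0.1 of 0 was found in 29 lists. Of 41 tested interferon-stimulated genes none was called, and their median was 0.05. At an unadjusted p under 0.05 by edgeR there were 9 of the 41, beside 1608 of all 21032 genes tested. That count was 0 for double-stranded RNA sensing and 1 for the RNA interference machinery. A shift of these lists was not tested. OAS3, which encodes a sensor enzyme of double-stranded RNA, was at 93.4 and 92.9 CPM in siNT1 and 54.8 and 80.4 CPM in siNT2 (0.46 ± 0.14, adjusted p = 0.25), and DDX60 differed by 0.44 ± 0.12 (adjusted p = 0.20). None of 15 tested genes of double-stranded RNA sensing was called, with DDX58, which encodes RIG-I, at -0.15 ± 0.08 and TLR3 at 0.35 ± 0.22. None of 15 tested genes of the RNA interference machinery was called either, and their median was -0.005, with AGO1 at -0.21 ± 0.10.

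Stress and inflammatory lists were alike in this. None of 29 tested NF-kB targets, chemokines and interleukins was called, although IL6 was at 56.5 and 43.7 CPM in siNT1 and 26.9 and 29.6 CPM in siNT2 (log2 difference 0.83 ± 0.19, adjusted p = 0.092) and CCL20 differed by 1.14 ± 0.31 (adjusted p = 0.19). None of 26 tested NRF2 and glutathione genes was called, with HMOX1, which encodes haem oxygenase 1, at 17.5 and 19.0 CPM in siNT1 and 27.2 and 34.3 CPM in siNT2 (-0.75 ± 0.17, adjusted p = 0.068). The 28 genes of amino acid and unfolded protein stress had a median of -0.12 and no call, and 8 of them lay above 0. At an unadjusted p under 0.05 by edgeR there were 8 of these 28, beside 1608 of all 21032 genes tested. For the NF-kB list there were 6 of 29, and for the NRF2 list 2 of 26. A shift of these lists was not tested. None of 24 tested p53 targets, 20 heat shock chaperones, 24 cholesterol genes, 40 ribosomal protein genes and 13 mitochondrially encoded genes was called. In that order, 10, 12, 5, 3 and 6 of them lay above 0, beside 10408 of all 21032 genes tested. At an unadjusted p under 0.05 by edgeR there were 4, 0, 2, 0 and 0 of them in the same order.

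**Figure D3:**
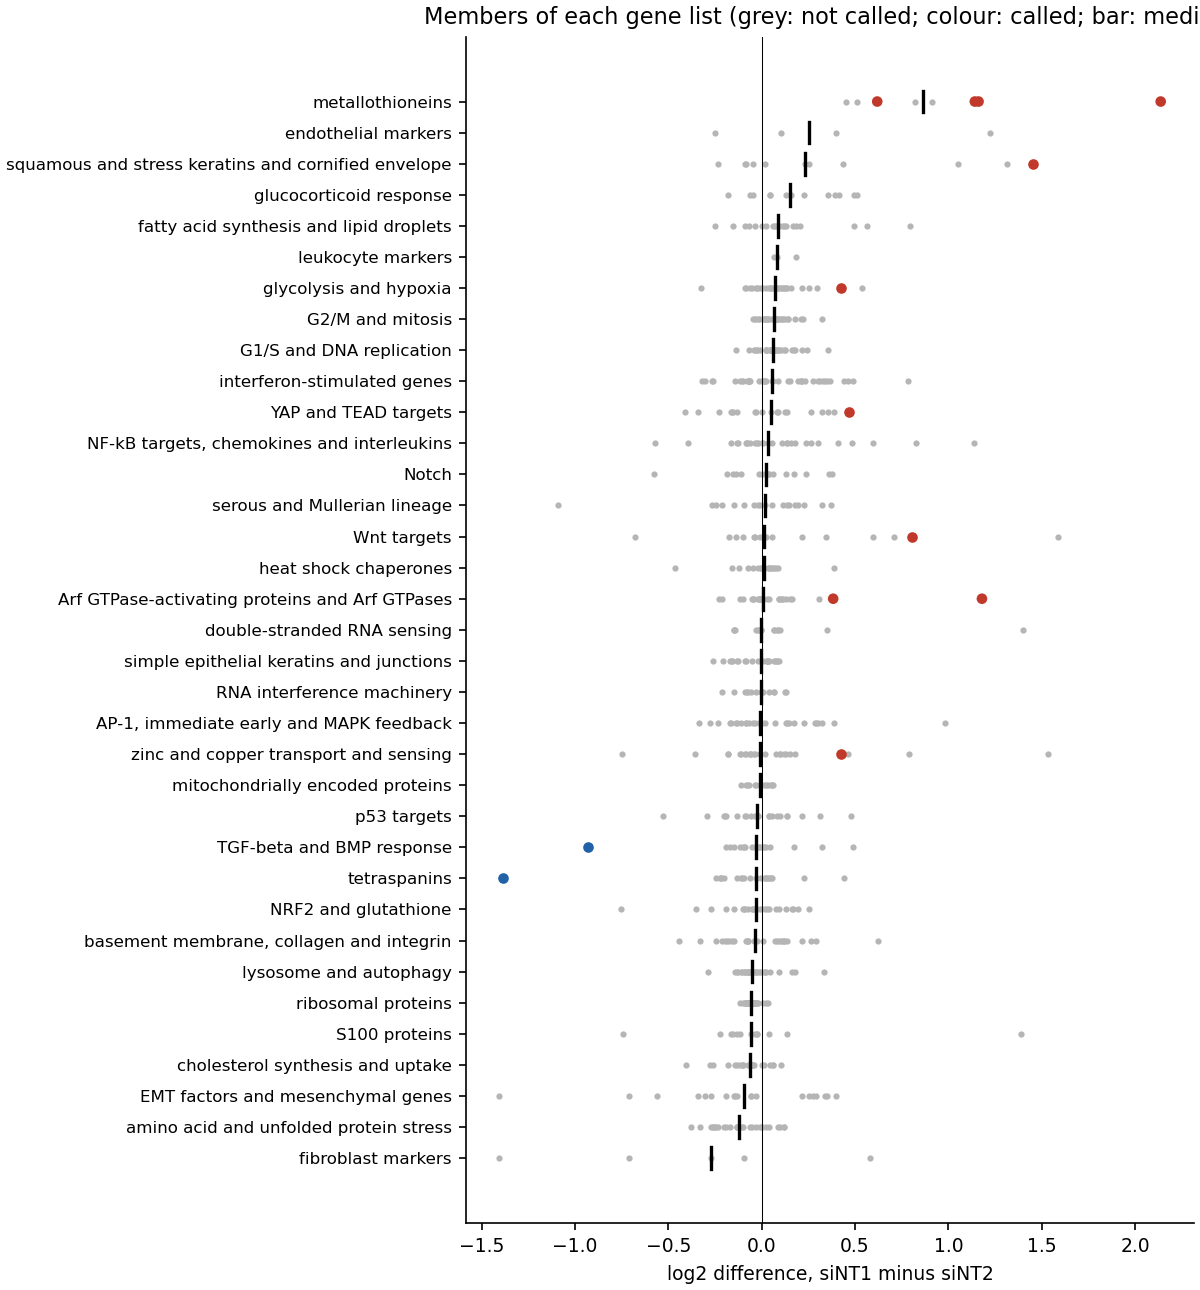
Log2 difference, siNT1 minus siNT2 (x axis), of every tested member of the 35 lists (rows, ordered by median). Red and blue points are members called higher and lower in siNT1, grey points are not called, and black bars are medians; the metallothionein median of 0.87 is the highest, and 29 medians lie within 0.1 of 0.

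Since an siRNA can act through its seed, the 3′ UTRs were read for short words that went with the difference. For each of 15910 heptamers held by at least 100 of 11677 protein-coding genes (mean log2 CPM of at least 1, longest annotated 3′ UTR of at least 50 bases, GENCODE 29), the mean log2 difference of genes with the word was set against that of genes without it and divided by its standard error. TTGCTCA, in 1564 genes, ranked first of all on the side of siNT1 at 8.25 standard errors, and TGCTCAA, in 1246 genes, ranked second at 7.33. The next word reached 3.44. The pair overlap by 6 letters and join into TTGCTCAA. In median difference they were 0.02 and 0.03, ranks 21 and 8 of all heptamers and ranks 2 and 1 of the 11451 heptamers in at least 500 genes. These are descriptions of the same difference between the pools, and genes that share a word are not independent replicates.

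The opposite side of the scan held long T-rich words, such as TGCTTTT in 3798 genes at -8.71 and TTTTGTT in 5098 genes at -8.42. With 3′ UTR length, GC content and mean expression regressed out, the lowest word stood at -4.10, while TTGCTCA stood at 11.4, TGCTCAA at 9.93 and the next, TGCTCAT, at 5.78. That regression was chosen after the unadjusted scan had been seen.

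**Figure D4:**
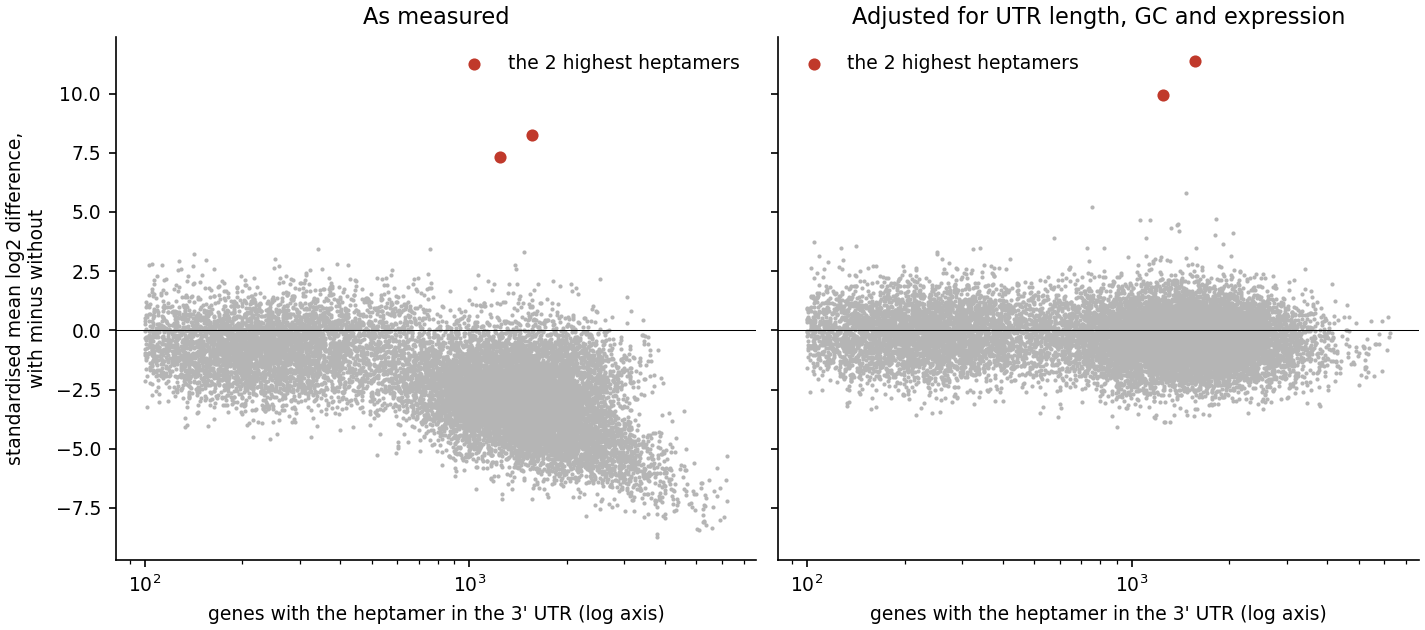
Each point is 1 of 15910 heptamers, with the number of genes that hold it in the 3′ UTR on a log x axis and the standardised mean log2 difference, with minus without, on the y axis; the left plot is as measured and the right one is adjusted for 3′ UTR length, GC content and expression. The 2 red points stand above all others in both, at 8.25 and 7.33 and at 11.4 and 9.93.

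Genes called higher in siNT1 held these words more often than genes at large. TTGCTCAA lay in the 3′ UTR of 14 of the 45 genes called higher that entered the scan, 31.1%, against 3.19% of all 11677. It lay in 0 of the 11 called lower. Either heptamer lay in 30 of the 45, 66.7%, against 19.3% of all, and in 3 of the 11 called lower. The words were picked by the same differences in a scan that held the 45, so part of these shares follows from the choice. The median 3′ UTR was also longer, at 1956 bases in the 45 and 2479 in the 11, against 1413 over all. None of the called metallothioneins, nor TNS4, EDN2 or IGFL1, held even the shared 6 letters TGCTCA, as was so for 11 of the 45.

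Sites of 12 called genes, picked after their values were seen as examples of 8-letter and 7-letter matches, are given in transcript sense, with the matching letters in capitals and 9 bases on each side. The coordinates are of the printed stretch in hg38. SMAP2 (chr1:40422204-40422229, plus strand), KIAA0040 (chr1:175157709-175157734, minus), SYNGR3 (chr16:1993993-1994018, plus), DYRK2 (chr12:67658794-67658819, plus), PPP2R1B (chr11:111740991-111741016, minus), IDH1 (chr2:208236749-208236774, minus), ANKRD1 (chr10:90912181-90912206, minus) and ARF3 (chr12:48936257-48936282, minus) held all 8 letters. CCND1 (chr11:69651837-69651861, plus), SEC23A (chr14:39032878-39032902, minus) and LRRC3 (chr21:44458623-44458647, plus) held 7 of them. GREM1 (chr15:32732082-32732106, plus), which was lower in siNT1, is shown for contrast, since it held 7 too.
SMAP2: gtttagaaaTTGCTCAAtaagtcatt
KIAA0040: ctttccccaTTGCTCAAtggattcca
SYNGR3: actcatgcaTTGCTCAAagctggctt
DYRK2: tgtttttatTTGCTCAAtaactctac
PPP2R1B: ggtttttatTTGCTCAAttttgtctg
IDH1: aaatcaagaTTGCTCAAaagggtaaa
ANKRD1: gaattgaatTTGCTCAAaaaagatga
ARF3: tctctatccTTGCTCAAaatgtggga
CCND1: gtactttgcTTGCTCAtatgcatgt
SEC23A: tgaattttcTTGCTCAccttttaaa
LRRC3: ataatttagTGCTCAAtttactaac
GREM1: gttgcaatcTGCTCAAacctaacac
The 8-letter site of SMAP2 begins at base 112 of its 1225-base 3′ UTR and that of DYRK2 at base 90 of 6693, and DYRK2 has a second, 7-letter site at base 549. Beyond the word itself the flanks were not compared. The siRNA sequences of the pools are not in the sources used here, so the words could not be set against them. Of 2370 mature human microRNAs from RefSeq, 0 have the complementary seed UGAGCAA at bases 2 to 8.

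Over all scanned genes, called ones included, the shift was small and larger with the 8-letter match than with shorter ones. The 8 letters were joined from the 2 leading heptamers of a scan of these same differences. Part of this order, and of the shares below, therefore follows from the choice. The median log2 difference was 0.05 in the 372 genes with TTGCTCAA, 0.007 in the 1192 with TTGCTCA alone, 0.01 in the 695 with TGCTCAA alone, -0.008 in the 2167 with TGCTCA only and -0.01 in the 7251 with none. A difference of at least 0.3 was seen in 13.2% of the 372 genes with the octamer, against 3.98% of all 11677, while one of -0.3 or lower was seen in 1.61% against 1.84%. Both siNT1 libraries lay below all 12 others in 2.15% of the octamer genes and in 1.71% of those without the hexamer, and both siNT2 libraries did in 7.53% and 1.59%. Among genes called higher the shares ran the other way, with no test of the difference: both siNT2 libraries lay below all 12 others in 5 of the 14 with the octamer, 35.7%, and in 5 of the 11 without the hexamer, 45.5%. By copies of TTGCTCA, the median was 0.01 for 1314 genes with 1, 0.03 for 201 with 2 and 0.05 for 49 with 3 or more. In the same order 1.45%, 1.99% and 0% were called higher, against 0.385% of all 11677. The median 3′ UTR length rose as well, from 3038 to 4870 and 7981 bases.

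**Figure D5:**
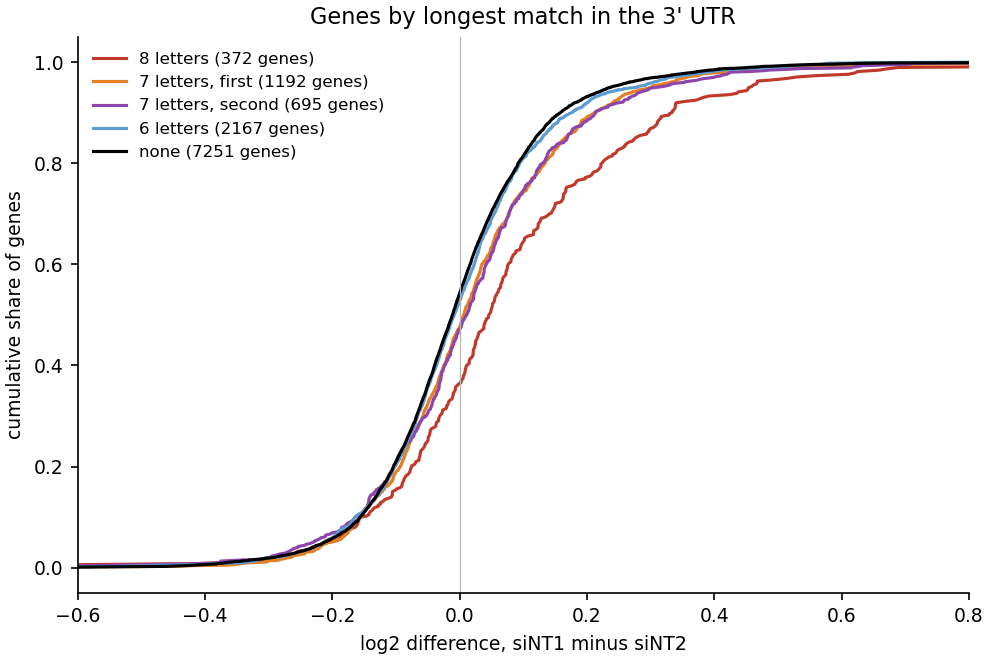
Cumulative share of genes (y axis) by log2 difference, siNT1 minus siNT2 (x axis, shown from -0.6 to 0.8), for genes grouped by the longest match in the 3′ UTR to the leading 8-letter word. The curve of the 372 genes with all 8 letters lies to the right, and that of the 2167 genes with 6 letters runs along that of the 7251 genes with none.

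Long 3′ UTRs hold more words, and the octamer genes had a median 3′ UTR of 3466 bases against 1413 over all. When genes were cut into 3 equal groups by 3′ UTR length, within the longest group the median was 0.04 for 278 octamer genes and -0.04 for 1295 genes without TGCTCA. Within the middle group it was 0.06 for 76 octamer genes and -0.02 for 2557 without, and the shortest held 18 octamer genes, at 0.16, and 3399 without, at 0.001.

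The libraries of a pool did not carry the octamer difference equally. Set against the mean of the 10 knockdown libraries, octamer genes lay below genes without the hexamer by a median log2 CPM of -0.05 and -0.04 in the siNT1 libraries and of -0.07 and -0.16 in the siNT2 libraries. siNT2 replicate 2 was thus the lowest and siNT2 replicate 1 near siNT1. The median difference for TTGCTCA, 0.025 in the full fit, was 0.041 without siNT1 replicate 1, 0.011 without siNT1 replicate 2, 0.046 without siNT2 replicate 1 and 0.0088 without siNT2 replicate 2, and the number of genes called higher that hold TTGCTCAA was 3 to 10 in those fits.

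The choice of pool as the only control changed what was read for these genes in the knockdowns. Against siNT1 and against siNT2, the calls numbered 9935 (47.2% of genes tested) and 9806 (46.6%) for siPAX8, 10097 (48%) and 9808 (46.6%) for siSOX17, and 10830 (51.5%) and 10736 (51%) for siDual. They numbered 5568 (26.5%) and 5610 (26.7%) for siMECOM and 6498 (30.9%) and 6718 (31.9%) for siWT1. The count for siMECOM against siNT1 was 3497 without siNT1 replicate 1. Each pair of counts shares its knockdown libraries, and the 63 genes were chosen for their difference between the pools, so their values are given side by side as a description.

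MT1M in siPAX8 cells had a log2 difference of -0.75 from siNT1 (adjusted p = 0.0015) and of 1.39 from siNT2 (adjusted p = 1.3e-05), so it was called lower against one pool and higher against the other. It was likewise called both ways in siSOX17 (-0.65 and 1.49), siDual (-1.49 and 0.65) and siWT1 (-0.89 and 1.24). In siMECOM it was called higher against both, by 0.46 and 2.60. MT1E in siPAX8 was called at -0.52 against siNT1 and at 0.62 against siNT2, and in siMECOM at 0.76 and 1.90.

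SMAP2 in siWT1 cells did not differ detectably from siNT1 (-0.16, adjusted p = 0.18) and was called higher than siNT2 (1.02, adjusted p = 5.9e-08). In siPAX8, siSOX17, siDual and siMECOM it was called higher against either pool, by 0.66, 0.56, 0.71 and 0.33 over siNT1 and by 1.84, 1.74, 1.89 and 1.51 over siNT2. CCND1 in siWT1 was called lower than siNT1 (-0.85, adjusted p = 1.1e-06) and not than siNT2 (-0.04, adjusted p = 0.77), and in siMECOM it was called at -0.56 against siNT1 and missed the threshold at 0.25 against siNT2 (adjusted p = 0.053). TSPAN2 in siWT1 was called higher than siNT1 by 0.59 and lower than siNT2, at -0.79, while siPAX8, siSOX17 and siDual were above both pools. The targeted genes read alike against either pool: PAX8 in siPAX8 was at -2.45 and -2.60, SOX17 in siSOX17 at -2.92 and -2.96, MECOM in siMECOM at -3.37 and -3.35 and WT1 in siWT1, from low counts, at -4.97 and -5.07 against siNT1 and siNT2.

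For octamer genes as a whole, the gap between the values against the 2 pools is the difference between the pools over again, by arithmetic, and the values are given only for their size. Their median log2 difference less that of genes without the hexamer was 0.12 for siPAX8 minus siNT1 and 0.16 for siPAX8 minus siNT2, and 0.09 and 0.14 for siDual. It was 0.06 and 0.10 for siSOX17, 0.07 and 0.11 for siMECOM and -0.005 and 0.08 for siWT1. The 5 knockdowns also share the control libraries, so these values are not separate evidence.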

How the data were processed

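The deposited values were whole-number gene counts on hg38; STAR 2.5.1b and featureCounts 1.6.3 are named per the submitters' processing notes, and options, strand setting and annotation release are not given in the sources used here. RNA was prepared with a Nucleospin RNAplus kit and sequenced by the standard BGI-seq protocol, per the labels. Of 58219 genes, 57881 matched GENCODE 29, which gave names, positions and 3′ UTRs.

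Genes were filtered with filterByExpr (minimum count 10, minimum total 15) in edgeR 4.0.16 under R 4.3.3, scaled by TMM and fitted with 1 coefficient for each of 7 groups over all 14 libraries (7 residual degrees of freedom, common dispersion 0.00573). Quasi-likelihood p-values received Benjamini-Hochberg adjustment over all 21032 genes, and a gene was called under 0.05. A standard error (SE) is the log2 difference over the square root of F. On simulated data for siNT1 minus siNT2, 91% of 2-fold and 100% of 4-fold changes were recovered, with 10 false calls among 19751 unchanged genes. The changed genes were drawn from those above a minimum expected count, and the knockdown groups were given no difference. Smaller changes, such as the median called size of 0.62 on the log2 scale, were not simulated. Named genes were the 15 largest called increases and up to 12 largest called decreases among protein-coding genes, of which 11 were called lower. Also named were every measured metallothionein, the targeted genes, and up to 2 called members each way and 2 uncalled examples per list. NXT1, MOCOS, CA12, WDR82, AC005392.2, SEC23A, DYRK2, PPP2R1B, IDH1, AC078777.1, AC026461.1, AC106760.1 and LTO1 were named after their values were seen. A few genes picked by this rule are counted but not named here. The members, lists and tests were chosen with earlier results of these data known. Alternatives included DESeq2 1.42.0 and leaving out each library.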

Additional observations from a re-analysis of the deposited data

How the results depend on the processing

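All 63 called genes kept their direction in every alternative that tested them. Since the pools did not overlap in any of the 63, this was nearly fixed in advance. The calls for siNT1 minus siNT2 numbered 153 by DESeq2 (107 higher, 46 lower; 62 shared with the 63), 232 with no filter on low counts (163 higher, 69 lower, 25 at least 2-fold; 63 shared) and 150 with the replicate number as a block (105 higher, 45 lower; 63 shared). With total counts as library size, 62 genes were called, 6 of them lower, and the median of all genes moved to 0.03. The 4 control libraries alone gave 64 calls, 47 of them shared. Without 1 control library the calls ranged from 11 to 33, those higher from 10 to 28 and those lower from 1 to 5. Without 1 knockdown library, an alternative chosen after seeing the data, they ranged from 54 to 77, with at most 59 higher and 18 lower. The cause of these changes was not tested.

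The replicate numbers were not taken to pair the samples, since that needed a correlation over 0.1 in every pair of groups. Deviations of same-numbered siNT1 and siNT2 libraries correlated at 0.02 over genes. Over all 21 pairs of groups the median was 0.07 and the range -0.02 to 0.16, with 7 pairs above 0.1.

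The further descriptions moved with the calls, in alternatives chosen after seeing the data. Genes called higher with TTGCTCAA numbered 14, and 27 by DESeq2, 25 with no filter, 22 with the block and 3 to 16 without 1 library. Those with siNT2 below the other 12 libraries numbered 22, and 37 by DESeq2, 40 with no filter and 6 to 24 without 1 library. Metallothioneins called higher numbered 3 to 5 throughout. Lists with a called member numbered 9, and 16 by DESeq2, 20 with no filter, 14 with the block and 4 to 11 without 1 library. The median difference for TTGCTCA was 0.0088 to 0.046 without 1 library. For siMECOM minus siNT1 the calls were 3497 without siNT1 replicate 1 and 3756 without siNT1 replicate 2, beside 5568 with both.

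Uncalled values near 0 changed sign without 1 control library, with log2 differences of -0.13 to 0.056 for SOX17, -0.31 to 0.072 for WT1, -0.020 to 0.064 for MECOM, -0.24 to 0.038 for MT-ND1 and -0.26 to 0.12 for MT-ND6.

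With 2 libraries a pool, the smallest difference called in the main fit was 0.37 on the log2 scale. Some larger ones, such as 1.14 for CCL20, were not called. Lists without a call are not shown to be unaltered.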
